A study of Mus musculus with 6 samples.

Results

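The genes described here are the negative limb of the mammalian circadian clock together with one of its activators, read from RNA-seq of haematopoietic stem cells sorted from mice. They were taken by name: the Period genes Per1, Per2 and Per3, the Cryptochrome genes Cry1 and Cry2, the Rev-erb genes Nr1d1 and Nr1d2, the Dec genes Bhlhe40 and Bhlhe41, and Clock. These are 10 of 23574 features in the deposited tables, and all 10 were listed. There were 3 libraries from HLF KO animals, in which the gene of hepatic leukaemia factor is knocked out, and 3 from wild-type (WT) littermates. All animals were C57BL/6. Each library was made from total RNA of 3000 freshly sorted cells that carried no lineage antigens, CD34 or Flt3 and were positive for Sca-1 and c-Kit. The part of Hlf that was removed, the age of the animals and the hour of collection are not stated in the sources at hand. Nothing in the labels ties a library to an animal of its own, and the p-values below therefore cover only library-to-library spread, some of which may be technical.

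In the clock loop, CLOCK and its partner BMAL1 (gene Arntl) bind E-box elements in DNA and switch on the Period and Cryptochrome genes, whose proteins then return to the nucleus and inhibit CLOCK and BMAL1. The REV-ERB nuclear receptors, encoded by Nr1d1 and Nr1d2, repress Arntl in a second loop, against the ROR receptors, and the DEC proteins, encoded by Bhlhe40 and Bhlhe41, compete for E-boxes. HLF belongs with DBP and TEF to the PAR bZIP factors, which bind D-box elements and carry the rhythm to further genes, clock genes among them. Transcripts of most of these genes rise and fall over the day.

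Promoter sequences are shown because E-boxes and D-boxes are the elements through which the loop and HLF itself act. Windows running from 250 bases before to 50 bases after a start site were taken from RefSeq (GRCm38.p6). They were found for 8 of the 10 genes, with 11 windows in all, and no window was found for Per2 and Bhlhe40. Searched on both strands, the D-box (TTATGTAA or TTACGTAA) was present in 1.06% of all 32851 windows, the E-box (CACGTG) in 7.15%, the cyclic AMP response element (TGACGTCA) in 1.79% and the ROR element (TAGGTCA or TGGGTCA) in 6.45%. None of these motifs overlapped another in the windows of the clock genes. Per3 was the 1 clock gene with a D-box, and its window held the letters TTATGTAA at 2 places, beginning 205 and 158 bases before the start. At least 2 D-boxes were present in 8 windows of 32851 (0.0244%), a count made after the Per3 matches were seen. E-boxes were found for 3 clock genes, Per1, Cry1 and Bhlhe41, and neither the cyclic AMP response element nor the ROR element was found for any. A match is a run of letters and was not tested as a binding site. The 250 bases before the Per3 start (chr4:151044666-151044915, minus strand), with the D-boxes in capitals, and 66-base stretches around the E-box of Per1 (chr11:69098753-69098818, plus strand) and of Cry1 (chr10:85185079-85185144, minus strand), with the E-box in capitals, read 5′ to 3′:
Per3: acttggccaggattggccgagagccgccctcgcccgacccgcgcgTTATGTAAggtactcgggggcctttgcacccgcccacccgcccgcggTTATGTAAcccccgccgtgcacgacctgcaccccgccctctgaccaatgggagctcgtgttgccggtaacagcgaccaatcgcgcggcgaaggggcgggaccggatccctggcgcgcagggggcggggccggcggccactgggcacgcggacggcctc
Per1: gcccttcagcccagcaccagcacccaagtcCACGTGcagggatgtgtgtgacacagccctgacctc
Cry1: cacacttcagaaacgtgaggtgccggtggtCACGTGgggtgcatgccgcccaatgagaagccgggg

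The libraries held 10182464 to 11998296 counts in HLF KO and 8346335 to 9902102 counts in WT. Levels are given in CPM, each count per 1000000 of its library's TMM-scaled total. Pairs of HLF KO libraries correlated more closely (Pearson's r 0.869 to 0.883) than pairs of WT libraries (r 0.749 to 0.805), with genes as the points, which do not count as replicates. Pairs of 1 HLF KO and 1 WT library had r of 0.776 to 0.848. WT library 3 was closer to each HLF KO library (r 0.843 to 0.848) than to WT library 1 or 2. Xist had 1665 CPM in HLF KO library 3, 1854 CPM in WT library 3 and at most 3.11 CPM elsewhere. Hlf, the targeted gene, stood at 28.3, 37.6 and 37.3 CPM in HLF KO libraries 1 to 3, against 1370, 1662 and 1114 CPM in WT libraries 1 to 3 (log2 fold change -5.33, SE 0.26, edgeR adjusted p = 1.91e-06). Of 11 stem cell markers 10 were tested, and together they drew 409 to 578 CPM in HLF KO and 622 to 782 CPM in WT. The list was mixed in sign, with 6 negative and 4 positive log2 fold changes among the 10 tested. At an unadjusted edgeR p under 0.05, 3 of the 10 (Procr, Mecom and Fgd5) were lower in HLF KO, where 4.65% of all tested genes were lower. On the same measure 0 were higher, where 2.63% of all tested genes were, and 0 passed the adjusted test. Of the genes of the sort, Ly6a (Sca-1) had 0 counts and Kit 1 count in the 6 libraries together, and both have several listed transcripts, as do many genes with few counts here. Among the genes sorted against, Cd34, with 2 listed transcripts, had 2 to 8 counts a library, and Flt3, with 1, had 88 to 318. The 9 granulocyte markers together drew 62.7 to 165 CPM in HLF KO and 119 to 2389 CPM in WT, with WT library 3 the highest, and the 8 B-cell markers drew 130 to 299.9 CPM in HLF KO and 728 to 5599 CPM in WT. The 4 megakaryocyte markers drew 571 to 771 CPM in HLF KO and 216 to 279.5 CPM in WT, and the 5 T and NK cell markers 333 to 615 CPM in HLF KO and 118 to 239.9 CPM in WT. Nkg7 and Ccl5 carried the T and NK cell sum, while Cd3e averaged 20.2 CPM in HLF KO and 44.6 CPM in WT and Gzmb 1.45 CPM in HLF KO and 7.76 CPM in WT. The 6 mast cell, basophil and eosinophil markers drew 42.4 to 89.5 CPM in HLF KO and 91.6 to 837 CPM in WT, and the 4 endothelial markers 21.2 to 44.0 CPM in HLF KO and 50.1 to 138 CPM in WT. Stab2 gave most of the endothelial difference (mean 15.4 CPM in HLF KO, 57.7 CPM in WT). Kdr averaged 12.6 CPM in HLF KO and 13.1 CPM in WT, and Cdh5 had 0, 0.520 and 25.5 CPM in WT libraries 1 to 3, against 3.38 to 7.44 CPM in HLF KO. The 5 erythroid markers drew 122 to 160 CPM in HLF KO and 124 to 177 CPM in WT, and overlapped. The part of these differences in the clock gene values was not tested.

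None of the clock genes passed the test adjusted over all genes, and the lower sum in HLF KO stem cells came mostly from Bhlhe40, Cry2 and Per3. Summed over the 10 genes, HLF KO libraries 1 to 3 had 264, 241 and 215 CPM, against 529, 357 and 463 CPM in WT libraries 1 to 3, and the genotypes did not overlap. Their mean was 239.9 ± 24.8 CPM in HLF KO and 449.9 ± 86.9 CPM in WT (SD, n = 3 each). Of the 9 genes with enough counts to be tested, 7 had negative and 2 positive log2 fold changes, with a median of -0.50, where all 10204 tested genes had a median of -0.05. By edgeR's quasi-likelihood test with Benjamini-Hochberg adjustment 0 of the 9 were called, and Hlf was the 1 gene called among all (0.0098%). At an unadjusted p under 0.05 there were 4 lower genes, Per1, Per3, Bhlhe40 and Cry2, where 4.65% of all tested genes were lower, and 0 higher ones, where 2.63% were higher. The 4 did not share a pattern across libraries: Per1 and Per3 were lower in every HLF KO library than in any WT library, while Bhlhe40 and Cry2 had high values in 2 WT libraries each, not the same 2. Non-overlap of this kind in the lower direction was seen for 6.85% of all tested genes, and in the higher direction for 7.52%, with 0 clock genes among those. DESeq2 called 0 of the 9 (0.878% of the 9911 genes with an adjusted p were lower calls) and, run without a filter on low counts, called Per1 alone among them (1.03% of 10927 genes were lower calls).

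**Figure D1:**
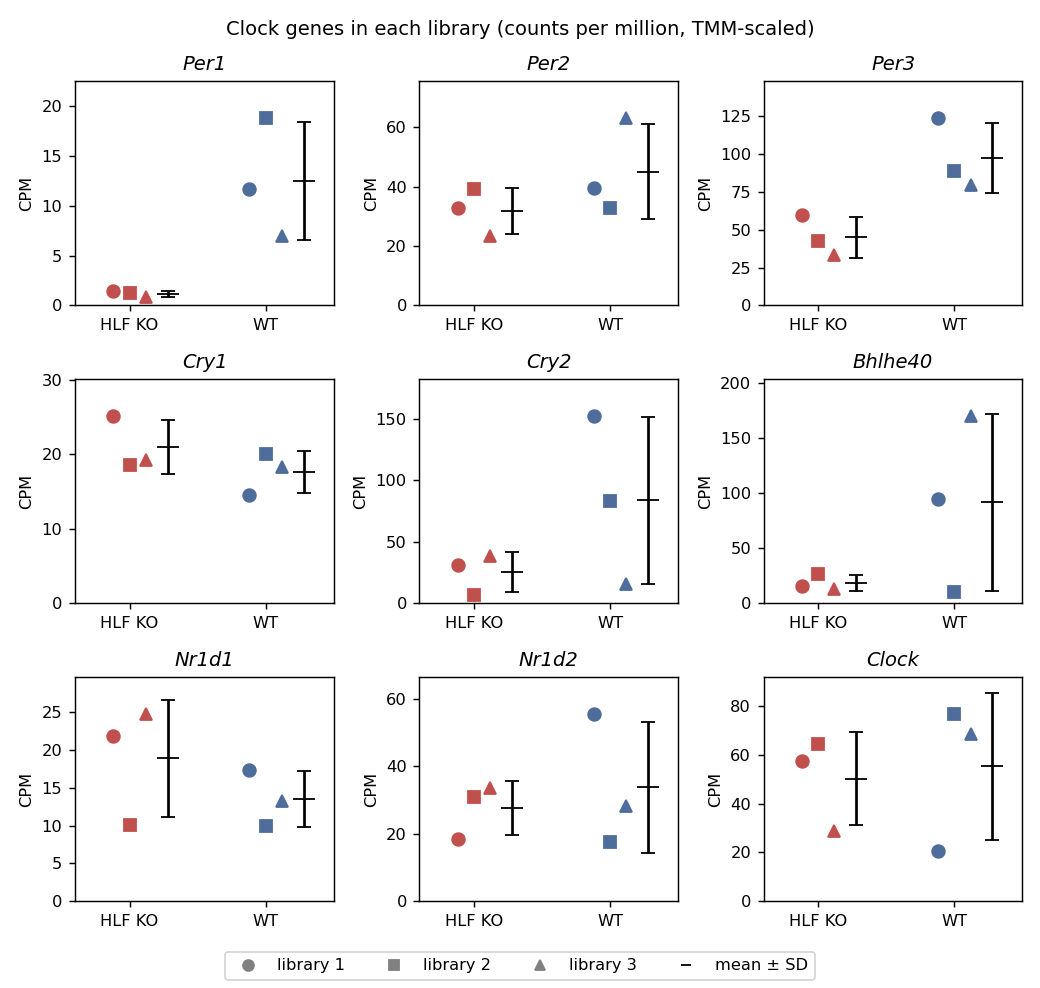
CPM (y axis, TMM-scaled) of the 9 tested clock genes in each HLF KO library (left, red) and each WT library (right, blue); symbols give the library number, and black marks the mean ± SD of 3 libraries. Per1 and Per3 are lower in all HLF KO libraries than in any WT library, and in the other 7 genes the genotypes overlap.

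Per3, like Per1, did not overlap between the genotypes. PER3 is the Period protein that the core rhythm depends on least. Its counts were 652, 451 and 381 in HLF KO libraries 1 to 3, against 970, 851 and 720 in WT libraries 1 to 3, or 59.6, 42.5 and 33.0 CPM in HLF KO and 123.4, 88.5 and 79.8 CPM in WT. Every HLF KO library was below every WT library, and within each genotype the values spread by less than 2-fold. The mean was 45.0 ± 13.5 CPM in HLF KO and 97.2 ± 23.1 CPM in WT (SD, n = 3 each), a log2 fold change of -1.11 (SE 0.40, 95% interval -1.98 to -0.24, edgeR unadjusted p = 0.0165, adjusted p = 0.57). Leaving out 1 library at a time gave log2 fold changes of -1.36 to -0.89, with unadjusted edgeR p-values of 0.0175 to 0.0701 (just above 0.05 without WT library 1, 0.0543 without HLF KO library 2 and 0.0701 without HLF KO library 3). Per3 is also the clock gene whose promoter window holds the D-boxes printed above. Whether these letters bear on its level was not tested.

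Per1 showed the largest fold difference of the 9 genes, on the fewest counts. PER1 is a core inhibitor of CLOCK and BMAL1, and its gene also responds quickly to outside stimuli. It had 16, 13 and 10 counts in HLF KO libraries 1 to 3, against 92, 180 and 63 counts in WT libraries 1 to 3. In CPM these were 1.46, 1.22 and 0.866 in HLF KO and 11.7, 18.7 and 6.98 in WT, and the genotypes were well apart. The log2 fold change was -3.38 (SE 1.18, 95% interval -5.97 to -0.79, edgeR unadjusted p = 0.0149, adjusted p = 0.56). The adjusted p was 0.0735 by DESeq2 on the same genes and 0.00566 without the filter on low counts. With 1 library left out the log2 fold change lay between -3.67 and -2.96, and the unadjusted edgeR p was 0.0524 without WT library 2 and 0.0529 without HLF KO library 3.

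Per1 has 2 listed transcripts, and such genes were counted low in these tables: summed over all libraries, the median was 3 counts for genes with 2 transcripts and 79 counts for genes with 1. Its counts may therefore not stand for the whole gene. Transcript NM_001159367 had 8, 10 and 10 counts in HLF KO libraries 1 to 3, against 90, 90 and 44 in WT libraries 1 to 3. Transcript NM_011065 had 8, 3 and 0 counts in HLF KO, against 2, 90 and 19 in WT, so the genotypes were apart for NM_001159367 and overlapped for NM_011065. In a fit over 10366 listed transcripts, NM_001159367 had a log2 fold change of -3.32 (SE 1.31, edgeR unadjusted p = 0.0275, adjusted p = 0.64), and NM_011065 had too few counts to be tested. Of the 9 tested transcripts of the clock genes, 4 had an unadjusted p under 0.05, all lower in HLF KO, where 7.22% of all tested transcripts passed in either direction. Apart from Per1 and Bhlhe41, the clock genes had 1 listed transcript each, so the gene and the transcript are the same counts.

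Per2, the Period protein most needed for the rhythm in mice, had 32.8, 39.1 and 23.5 CPM in HLF KO libraries 1 to 3, against 39.4, 32.7 and 62.9 CPM in WT libraries 1 to 3. The genotypes overlapped, and WT library 3 was the highest. The log2 fold change was -0.50 (SE 0.50, 95% interval -1.59 to 0.59), and -0.18 without WT library 3. The 3 Period genes together drew 93.9, 82.8 and 57.3 CPM in HLF KO, against 175, 139.9 and 149.7 CPM in WT, with Per3 giving most of the difference in CPM.

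The Cryptochromes, the strongest inhibitors of CLOCK and BMAL1, had estimates of opposite sign, and neither passed the adjusted test. Cry2 had 31.6, 7.06 and 38.4 CPM in HLF KO libraries 1 to 3, against 152, 83.1 and 16.1 CPM in WT libraries 1 to 3. WT libraries 1 and 2 were above every HLF KO library, and WT library 3 lay within the HLF KO range. The log2 fold change was -1.71 (SE 0.77, 95% interval -3.39 to -0.02, edgeR unadjusted p = 0.0480, adjusted p = 0.68). It was -0.93 without WT library 1 (unadjusted p = 0.245, edgeR), -1.25 without HLF KO library 2 (unadjusted p = 0.138) and -2.19 without WT library 3. Cry1 had 25.1, 18.6 and 19.2 CPM in HLF KO, against 14.5, 19.97 and 18.3 CPM in WT, a log2 fold change of 0.25 (SE 0.64, 95% interval -1.15 to 1.65). Its values were among the tightest of the group, and the genotypes overlapped. The difference between the Cry1 and Cry2 changes was not tested.

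Bhlhe40 had the smallest unadjusted p of the 9 genes and the largest spread within WT. BHLHE40 (DEC1) represses E-box genes and is also induced in activated immune cells. It had 15.9, 26.9 and 13.0 CPM in HLF KO libraries 1 to 3, against 94.9, 9.98 and 169.3 CPM in WT libraries 1 to 3. WT library 2 was the lowest of all 6 libraries, and WT libraries 1 and 3 were above every HLF KO library. The mean was 18.6 ± 7.36 CPM in HLF KO and 91.4 ± 79.7 CPM in WT (SD, n = 3 each), with a log2 fold change of -2.30 (SE 0.78, 95% interval -4.01 to -0.59, edgeR unadjusted p = 0.0129, adjusted p = 0.56). The log2 fold change was -1.49 without WT library 3 (edgeR unadjusted p = 0.113) and -2.82 without WT library 2, and by limma-voom it was -1.56 (unadjusted p = 0.147). Bhlhe41 (DEC2) had 0 counts in all 6 libraries for both of its listed transcripts. A count of 0 allows up to 0.25 to 0.295 CPM in HLF KO libraries and 0.303 to 0.359 CPM in WT libraries on their unscaled totals (3 counts per library), for counting error only. As it has several listed transcripts, this was not read as absence of the gene.

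The genes closest to Bhlhe40 across the 6 libraries were found by the root mean square difference of log2 CPM, centred on each gene's mean, among the 6610 genes whose log2 CPM averaged 4 or more. They were Slc28a2, a nucleoside transporter (0.41), Ly6c2, a surface antigen of monocytes (0.53), and Dnase1l3, a secreted nuclease (0.54). Ly6c2 had 18.4, 48.2 and 10.5 CPM in HLF KO libraries 1 to 3, against 71.0, 15.9 and 320.6 CPM in WT libraries 1 to 3, and like Bhlhe40 it was high in WT libraries 1 and 3. Among the clock genes the nearest was Per2 (1.17) and the farthest Cry2 (2.16). Of 5 macrophage and monocyte markers 4 were listed and 3 tested, and the summed level of those listed was 22.7, 64.0 and 20.1 CPM in HLF KO libraries 1 to 3, against 119, 28.2 and 371 CPM in WT libraries 1 to 3. Ly6c2, itself picked for its likeness to Bhlhe40, made up most of this sum. Of the other 3 listed, Ccr2 was also highest in WT library 1 (48.1 CPM) and WT library 3 (27.9 CPM), the former above the latter. It had 9.67 CPM in WT library 2 and 2.47 to 12.9 CPM in HLF KO. Csf1r had 0 counts in WT library 1, and Adgre1 (F4/80) had 2 counts in all, both in HLF KO library 2. The B-cell markers, at 299.9, 210.2 and 130 CPM in HLF KO libraries 1 to 3, against 2020, 728 and 5599 CPM in WT libraries 1 to 3, were highest in WT library 3, then in WT library 1. The sums of the granulocyte markers (67.3, 165 and 62.7 CPM in HLF KO libraries 1 to 3, against 191, 119 and 2389 CPM in WT libraries 1 to 3) and of the mast cell, basophil and eosinophil markers (89.5, 64.0 and 42.4 CPM in HLF KO, against 215, 91.6 and 837 CPM in WT) had the same order of WT libraries. Single genes of these last 2 lists differed. In WT libraries 1 to 3, Prtn3 (122, 70.7 and 367 CPM) and Prg2 (39.6, 8.42 and 723 CPM) had this order. Mpo (36.5, 45.6 and 1372 CPM) and Cpa3 (175, 51.8 and 9.64 CPM) did not. The part of cells of all these types in the Bhlhe40 values was not tested. In bulk RNA, fewer cells of a type and less RNA per cell cannot be told apart.

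**Figure D2:**
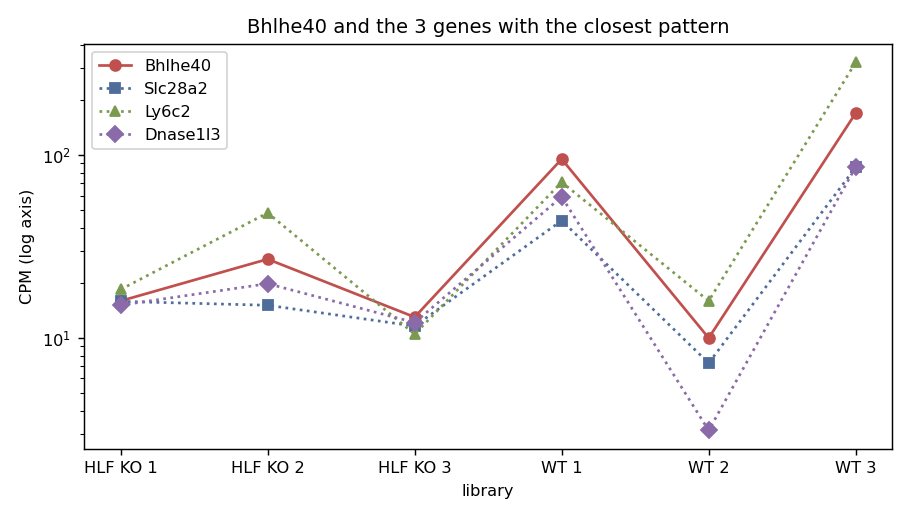
CPM (y axis, log scale) of Bhlhe40 (solid line) and of Slc28a2, Ly6c2 and Dnase1l3 (dotted lines) in the 6 libraries (x axis, HLF KO 1 to 3, then WT 1 to 3). All 4 genes have their 2 highest values in WT libraries 1 and 3, and Bhlhe40, Slc28a2 and Dnase1l3 are lowest in WT library 2.

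The Rev-erb genes and Clock showed no difference that could be resolved here. Nr1d1 (REV-ERB alpha) had 21.9, 10.1 and 24.7 CPM in HLF KO libraries 1 to 3, against 17.3, 9.98 and 13.2 CPM in WT libraries 1 to 3. Its log2 fold change was 0.48 (SE 0.74, 95% interval -1.13 to 2.09). Nr1d2 (REV-ERB beta) had 18.6, 30.8 and 33.6 CPM in HLF KO, against 55.3, 17.7 and 28.4 CPM in WT, and a log2 fold change of -0.29 (SE 0.60, 95% interval -1.59 to 1.01), which was 0.28 without WT library 1. The sum of both was 46.5 ± 10.2 CPM in HLF KO and 47.3 ± 23.0 CPM in WT (SD, n = 3 each). Clock, the activator, had 57.4, 64.4 and 28.6 CPM in HLF KO, against 20.6, 76.4 and 68.4 CPM in WT. HLF KO library 3 and WT library 1 were low, and the other 4 libraries lay close together. The log2 fold change was -0.14 (SE 0.55, 95% interval -1.34 to 1.06), and it turned to 0.18, 0.05 and 0.15 without WT library 2, WT library 3 and HLF KO library 3. These intervals include 2-fold changes in either direction for Clock, Nr1d2 and Nr1d1.

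**Figure D3:**
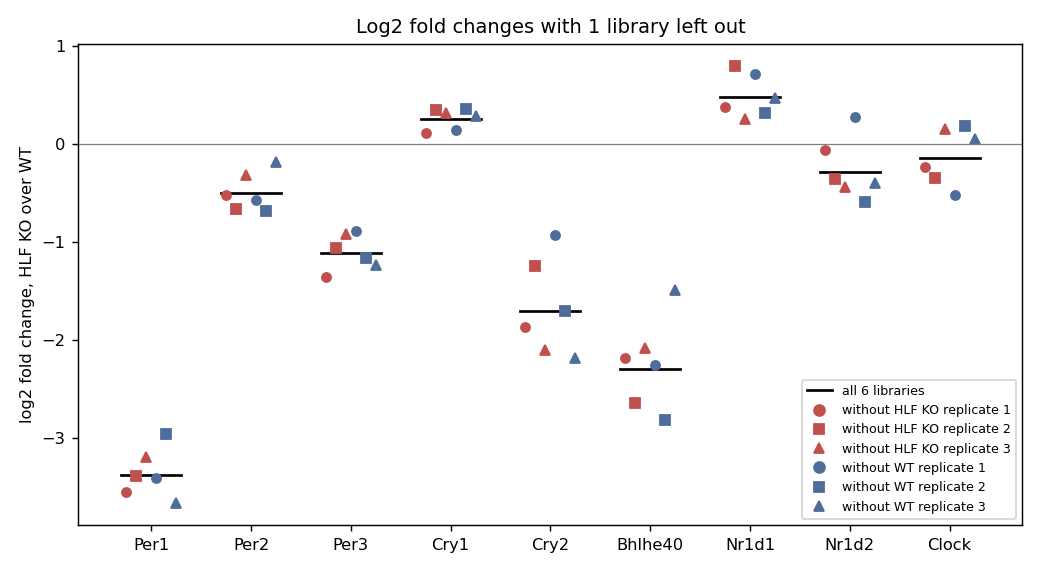
Log2 fold change of HLF KO over WT (y axis) of the 9 tested clock genes with all 6 libraries (black lines) and without 1 library (red, an HLF KO library left out; blue, a WT library left out). Per1, Per2, Per3, Cry2 and Bhlhe40 stay below 0 in every case, while Nr1d2 and Clock cross 0.

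To compare levels between genes, CPM were divided by transcript length in kilobases (GENCODE M21) for the 8 genes with 1 listed transcript. In HLF KO all 8 lay close together. The order by mean was Per3 (7.51 ± 2.25 CPM per kilobase), Nr1d1 (6.94 ± 2.85), Cry1 (6.92 ± 1.18), Clock (6.70 ± 2.54), Cry2 (6.45 ± 4.14), Bhlhe40 (5.98 ± 2.36), Nr1d2 (5.93 ± 1.71) and Per2 (5.45 ± 1.35; SD, n = 3 each), and no neighbours in it differed beyond their spread. In WT the order was Bhlhe40 (29.4 ± 25.6 CPM per kilobase), Cry2 (21.1 ± 17.1), Per3 (16.2 ± 3.85), Per2 (7.72 ± 2.72), Clock (7.37 ± 4.04), Nr1d2 (7.25 ± 4.16), Cry1 (5.81 ± 0.925) and Nr1d1 (4.96 ± 1.35; SD, n = 3 each). The first 3 of these overlapped each other, as did the last 5. Per3, at 13.3 CPM per kilobase in its lowest WT library, was above each of the last 5 in every WT library, while Bhlhe40 and Cry2 were not.

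The partners of these genes, taken from lists, gave few values that differed. Of 5 genes of the activating limb (Arntl, Arntl2, Npas2, Rora and Rorb) 1 was tested, Rora, with a log2 fold change of -0.49 (SE 0.71, edgeR adjusted p = 0.92). Arntl, whose transcript runs opposite in phase to Nr1d1, has 2 listed transcripts and had 0 counts in every HLF KO library, against 0, 0 and 11 in WT libraries 1 to 3, and its level was not read from these. Npas2, a relative of Clock, had too few counts to be tested, with 10, 8 and 11 in HLF KO libraries 1 to 3, against 0, 0 and 5 in WT libraries 1 to 3. Of Dbp, Tef and Nfil3, the D-box factors related to or opposing HLF, only Dbp was tested, with 24, 34 and 26 counts in HLF KO libraries 1 to 3, against 5, 0 and 20 in WT libraries 1 to 3 (log2 fold change 1.41, SE 1.63, edgeR adjusted p = 0.88). Dbp, like the Period genes, is driven through E-boxes, and its interval of -2.15 to 4.97 left both directions possible. Of 12 kinases and ubiquitin ligases that set the stability of clock proteins 7 were tested, 0 with an unadjusted p under 0.05, with log2 fold changes between -0.57 and 0.42. Of 11 coregulators 7 were tested, and 1, Ciart, was lower at an unadjusted p under 0.05. Ciart (CHRONO), a further inhibitor of CLOCK and BMAL1, had 10, 11 and 1 counts in HLF KO libraries 1 to 3, against 153, 7 and 46 in WT libraries 1 to 3. Its log2 fold change was -3.61 (SE 1.64, edgeR unadjusted p = 0.0486, adjusted p = 0.68), and -2.07 without WT library 1 (unadjusted p = 0.286).

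**Figure D4:**
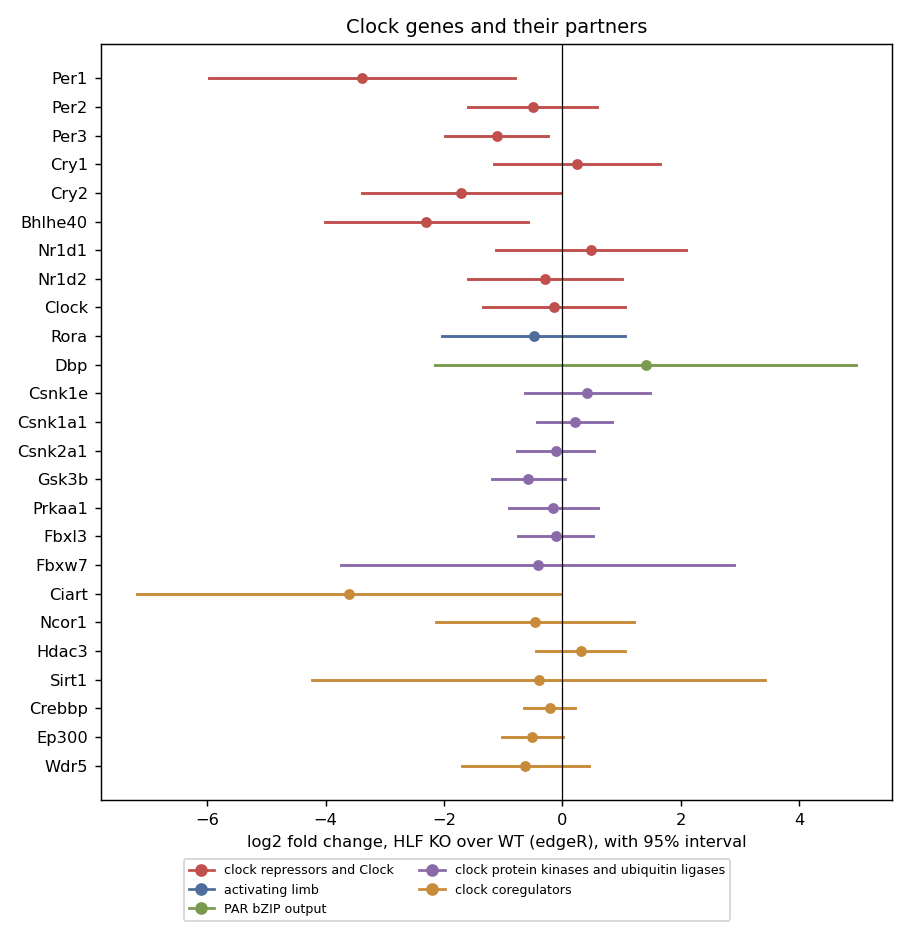
Log2 fold change of HLF KO over WT with its 95% interval from edgeR (x axis) for the 9 tested clock genes and the tested genes of 4 lists of clock partners (y axis, coloured by list). The intervals of Per1, Per3, Cry2, Bhlhe40 and Ciart lie below 0, and those of the other genes include 0.

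Per1 is itself a stimulus-induced gene, so a list of 15 immediate early genes was set beside it. All 15 were tested, 13 with negative and 2 with positive log2 fold changes and a median of -1.08. At an unadjusted p under 0.05, 8 were lower (Fos, Fosb, Junb, Egr1, Dusp1, Zfp36, Klf6 and Sik1), with log2 fold changes between -1.35 (Junb) and -0.73 (Dusp1), where 4.65% of all tested genes were lower, and 0 were higher, where 2.63% were. Junb was at -0.50 without WT library 1 (edgeR unadjusted p = 0.191). None of the 15 passed edgeR's adjusted test. DESeq2 on the same genes called 4 of them lower, Zfp36 (adjusted p = 0.0032), Fos (adjusted p = 0.0173), Egr1 (adjusted p = 0.0452) and Fosb (adjusted p = 0.0483). Among all 9911 genes with an adjusted p, 0.878% were lower calls. Of these 4, DESeq2 without a filter on low counts called only Zfp36 (adjusted p = 0.0107), where 1.03% of 10927 genes were lower calls. Its adjusted p was 0.0505 for Fos, 0.108 for Fosb and 0.115 for Egr1. Without that filter edgeR called Zfp36 (adjusted p = 0.0497), among 9 calls over 14669 genes. The summed level of all 15 was 5271, 4095 and 4877 CPM in HLF KO libraries 1 to 3, against 11723, 9419 and 6522 CPM in WT libraries 1 to 3, and did not overlap. Sik1, a kinase that limits the response of the clock to stimuli, had a log2 fold change of -1.32 (SE 0.38, edgeR unadjusted p = 0.00518, adjusted p = 0.47). The summed level of this list was highest in WT library 1, while Per1 was highest in WT library 2. Single genes of the list differed. Of the lower genes named above, Fos, Fosb, Junb, Zfp36, Klf6 and Sik1 were highest in WT library 1. Like Per1, Dusp1 (625, 674 and 519 CPM in WT libraries 1 to 3) was highest in WT library 2. So, by little, was Egr1 (3173, 3180 and 1724 CPM in WT libraries 1 to 3). The part of this list's difference in the Per1 values was not tested.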

How the data were processed

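Each of the 6 deposited tables lists, as the authors left them, unnormalised counts of reads for RefSeq transcripts. TopHat and the mouse build mm9 are named in the submitters' processing notes. Versions, the counter, its annotation, its strand setting and its rule for shared reads were not given in the sources used here. All tables listed the same 30858 transcripts. Symbols came from RefSeq (GRCm38.p6) for 30363 transcripts and from GENCODE for 179, and 316 kept their accession. Counts were summed per gene. Genes with 1 listed transcript held 97.2% of counts.

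Genes were filtered with filterByExpr (minimum count 10, minimum total 15), scaled by TMM and tested with edgeR 4.0.16 (robust quasi-likelihood F test, R 4.3.3) over all 6 libraries without covariates. Adjustment was by Benjamini-Hochberg over 10204 genes, and an adjusted p under 0.05 was a call. DESeq2 1.42.0 and limma-voom 3.58.1 were alternatives. Log2 CPM used a prior count of 2. The fit was tested on simulated data. Alternatives also varied the scaling, the filter, the depth, the transcripts used and the libraries kept. The members, lists and tests were chosen with earlier results of these data known. All members were named, with Arntl, list genes at an unadjusted p under 0.05 and the 3 genes most like the member of smallest p. Rora, Npas2, Dbp and single marker genes were named after their values were seen. A further gene of the activating limb is not reported here. Genes were matched to promoter windows by symbol.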

Additional observations from a re-analysis of the deposited data

How the results depend on the processing

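The genes called over all tested genes, 1 in the edgeR fit, were 9 without a filter on low counts, 108 by DESeq2 (87 lower, 21 higher) and 170 by DESeq2 without the filter, the last chosen after seeing the data. The clock genes at an unadjusted p under 0.05, 4 in the edgeR fit, were 2 by limma-voom (Per1 and Per3), and the 4 transcripts were 2. Over all tested genes, same-numbered libraries of both genotypes did not deviate together (r of -0.02 to 0.02). Xist, however, was high in library 3 of both genotypes (1665 CPM in HLF KO, 1854 CPM in WT) and low in the others. The labels do not say whether libraries were paired by number. With the replicate block 2 genes were called, and 2 clock genes (Per1 and Per3) and 1 of their transcripts were at an unadjusted p under 0.05. The causes were not tested. With 1 library left out, 1 to 3 genes were called, 2 to 3 clock genes and 1 to 3 of their transcripts were at an unadjusted p under 0.05, and the log2 fold change ranged from -0.52 to 0.18 for Clock and from -0.59 to 0.28 for Nr1d2. The other 7 tested clock genes kept their direction under all alternatives run, and the median of the group stayed between -0.68 and -0.39. Scaling by RLE or upper quartiles turned no clock gene's direction. The transcript count has no value with 1 transcript standing for each gene or with genes of 1 transcript alone, and Per1 has none in the second of these. Over all genes, standard errors on the log2 scale had a median of 0.59, which limits what 3 libraries a genotype can resolve.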
